A study of Mus musculus with 34 samples.

Results

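The genes described here encode the protein subunits of the cytosolic ribosome. They were taken as every entry of the count table named Rpl or Rps followed by a number, with at most 1 trailing a or x, together with Rplp0, Rplp1, Rplp2 and Rpsa. This gave 76 of 29876 genes, 46 of the large subunit and 30 of the small subunit. Rpl36a had 0 counts in all 28 libraries. In all, 74 passed the filter on low counts within each stage and over the control libraries, and 75 did so over all libraries together.

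A ribosome holds 1 copy of most of its proteins, and the genes for these proteins are scattered over many chromosomes but are transcribed at matched levels. Their mRNAs mostly begin with a cytosine followed by a run of pyrimidines (the terminal oligopyrimidine tract, or TOP), through which their translation follows mTOR signalling by way of the cap-binding protein Larp1. Ribosome output is high in growing stem cells and lower in post-mitotic neurons, and several of the proteins also act outside the ribosome, for example by binding Mdm2 when assembly fails.

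Total RNA was sequenced from mouse cells in 9 groups, 3 genotypes at each of 3 stages. Control cells were labelled 129Sv +/+, deletion cells 129Sv df/+ and duplication-deletion cells 129Sv df/dp, all on the background strain C57BL/6N; the altered region is 7qF3, which corresponds to human 16p11.2. In that notation deletion cells carry 1 copy of the region, and duplication-deletion cells lack it on 1 chromosome and have 2 copies on the other. Cells were taken as pluripotent stem cells (ESCs), after 5 days of differentiation towards ventral midbrain as neural progenitors (NPCs), and after 16 days as immature dopaminergic neurons. There were 3 control, 3 deletion and 3 duplication-deletion libraries in ESCs, 5, 3 and 3 in NPCs, and 4, 2 and 2 in neurons. The labels do not say whether libraries of a group came from separate cultures or differentiations, so the p-values below measure the spread between these libraries, which may be technical.

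Depth ran from 5578151 to 78814037 counts per library. Marker lists were checked against the stage labels: 9 naive pluripotency genes summed to 1679 to 2223 CPM (counts scaled to a common library size) in control ESCs and to 2.47 to 4.55 CPM in control NPCs, while 10 dopaminergic markers summed to 9.73 to 12.5 CPM in control ESCs and to 545 to 777 CPM in control neurons. Markers of other cells were present too. Mesenchymal and endothelial markers summed to 137 to 206 CPM in control ESCs, 514 to 2336 CPM in control NPCs and 747 to 2189 CPM in control neurons, and astrocyte markers to 807 to 1044 CPM in control neurons. These are bulk samples, so fewer cells of a type and less RNA per cell cannot be told apart.

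The sequence around the annotated start of 8 of these genes is shown first, because they are the matched genes among the 5 largest called falls of each of the control stage comparisons below (Rpl36 and Rpl23a of those falls were not matched). Each window runs 5′ to 3′ on the gene's strand from 15 bases before to 15 bases from the RefSeq start (GRCm38.p6), and capitals mark 4 cores of a pyrimidine tract: CTTTC and CTTTT, and besides these CTTCC and CTTCT.
Rps6 (chr4:86857353-86857382, minus strand): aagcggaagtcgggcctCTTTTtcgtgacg
Rps2 (chr17:24720048-24720077, plus strand): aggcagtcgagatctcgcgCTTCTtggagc
Rpl12 (chr2:32961697-32961726, plus strand): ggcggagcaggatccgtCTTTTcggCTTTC
Rps26 (chr10:128626492-128626521, minus strand): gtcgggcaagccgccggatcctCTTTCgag
Rpl4 (chr9:64173372-64173401, plus strand): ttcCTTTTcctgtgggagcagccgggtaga
Rpl13 (chr8:123102335-123102364, plus strand): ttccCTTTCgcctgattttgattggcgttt
Rps3 (chr7:99483695-99483724, minus strand): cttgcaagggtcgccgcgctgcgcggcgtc
Rpl23 (chr11:97782425-97782454, minus strand): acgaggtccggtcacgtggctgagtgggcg

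The RefSeq promoter table held 55 of the 76 genes. At least 1 of the 4 pyrimidine cores stood in the 30-base window on the sense strand of 28 of the 55 (50.9%), against 16.2% of 27025 promoters; Rps3 and Rpl23 above are among those without one. In the 300-base promoters, CCGGAAG, the core bound by Ets family factors, was found on either strand in 40% of the 55 and in 9.12% of all. GGGCGG, the core of a GC box, was found in 58.2% and in 35.9%, and AAGATGGC, the core of a YY1 site, in 7.27% and in 2.88%. TATAAA between 40 and 10 bases before the start was found in 0 of the 55 and in 2.30% of all. The annotated start need not be the cap site in these cells, so a missing tract says only that these letters are not in the window. A core in the window may also lie before the annotated start, as in Rpl4 and Rpl13.

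The genes lay on many chromosomes, and 14 of the 73 with positions in the authors' table (build mm9) lay on chromosome 7. None lay in the altered region as spanned by its genes in that table (chromosome 7, 133843288 to 134339514). The nearest was Rps15a, at 125247890 to 125259661, a distance of 8.58 Mb.

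The summed level of the 76 genes was lower at each later stage. In control ESCs it was 39810, 47890 and 50442 CPM after TMM scaling (a scaling by the trimmed mean of log ratios, applied over all 28 libraries, as for every CPM value here). The 5 control NPC libraries ran from 18976 to 35109 CPM with a median of 26931, and the 4 control neuron libraries held 12222, 10682, 12247 and 13886 CPM. All control NPC libraries were below all control ESC libraries, and all control neuron libraries were below all control NPC libraries. As mean ± SD this is 46047 ± 5550 (n = 3), 27425 ± 6075 (n = 5) and 12259 ± 1308 CPM (n = 4). Of all counts without scaling, these genes held 3.43% to 5.58% in control ESCs, 1.90% to 3.68% in control NPCs and 1.02% to 2.07% in control neurons. The largest single entry held 38.8% of the counts in control neuron 1 and 19.6% in control neuron 4. These had the lowest and highest share of the control neurons, and the part of that entry in the shares was not tested. The means of the mutant groups had the same order of stages. Single libraries overlapped in deletion cells, where NPC replicate 5, at 39005 CPM, lay above ESC replicates 1 and 3 (32306 and 36622 CPM). Deletion cells lay at 36889 ± 4721 (n = 3), 26658 ± 10841 (n = 3) and 15120 ± 1640 CPM (n = 2), and duplication-deletion cells lay at 45195 ± 8622 (n = 3), 23843 ± 5406 (n = 3) and 11997 ± 153 CPM (n = 2) in ESCs, NPCs and neurons.

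**Figure D1:**
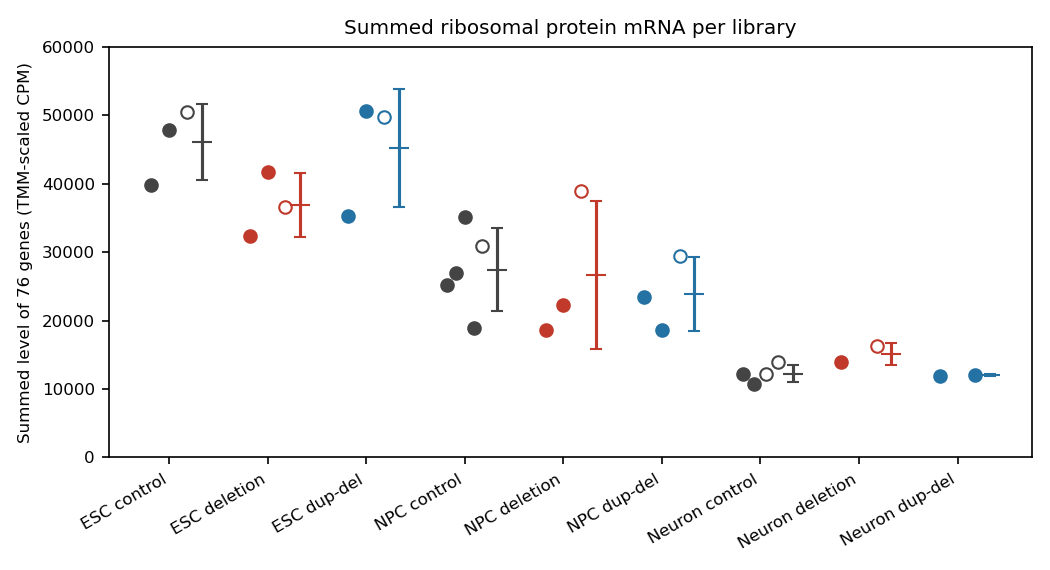
Summed level of the 76 genes (TMM-scaled CPM, linear axis from 0) in each library, by group; bars to the right of the points show mean ± SD. Open symbols mark the 9 libraries set apart in the text: the shallow ones, control neurons 3 and 4 and deletion neuron 3. Not all of them lie far from their group mean here (control neuron 3 at 12247, mean 12259). The control libraries lie at 39810 to 50442 in ESCs and at 10682 to 13886 in neurons.

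Some libraries stood apart within their own group in depth, in these genes or in both, and every result below is read beside them. Replicate 3 of each ESC genotype and replicate 5 of each NPC genotype were the shallowest of their groups (5578151 to 24053970 counts, against at least 35672610 in the other libraries). Their median deviation from the group mean over 75 of the genes was 0.16 to 0.31 log2 in ESCs and 0.33 to 0.82 in NPCs. Respiratory chain genes deviated with them, by 0.09 to 0.34 in ESCs and 0.19 to 0.69 in NPCs, and histone genes by 0.47 to 0.90 and 0.46 to 1.60, while the median of all genes deviated by at most 0.12. Ribosome biogenesis factors deviated the other way in the ESC libraries, by -0.55 to -0.34. Control neurons 3 and 4 and deletion neuron 3 deviated in the same direction without being shallow, by 0.09, 0.29 and 0.33 for these genes and 0.42 to 1.09 for histone genes. Control neuron 3, at 0.09, deviated less over these genes than control neurons 1 and 2 (-0.18 and -0.30), and was set apart with the others after seeing the data. The deletion neuron group held 2 libraries, so its replicate 1 deviated by as much the other way (-0.33 and -1.09). These values cannot say which of the 2 stood apart. Control NPC replicate 3, with 57588641 counts, deviated by 0.39, and control NPC replicate 4, with 50638966, by -0.54. Duplication-deletion ESC replicate 1 deviated by -0.52 and deletion NPC replicate 1 by -0.40. The shallow libraries were therefore not always the farthest from their group mean. The part of depth or library make-up in this pattern was not tested.

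The SD within groups on the log2 scale had a median of 0.45 over the 75 genes, against 0.68 over all 19996 genes in the joint fit. Rpl30, of the large subunit, was the steadiest, at 281, 273 and 284 CPM in control ESCs. Rps14, a small-subunit protein whose loss is known from a form of myelodysplastic syndrome, was among the least steady: it read 45.6, 31.5 and 267 CPM in control ESCs and 22.1, 17.9, 172 and 226 CPM in control neurons. Rps29, also of the small subunit, read 34.6, 13.2 and 149 CPM in control ESCs and 12.2, 33.7, 119 and 137 CPM in control neurons. The high values were those of ESC replicate 3 and of control neurons 3 and 4 in both genes. Rps16, Rpl23 and Rps4x deviated against the rest: in control ESCs Rpl23 read 1834, 3958 and 1337 CPM, lowest where Rps14 was highest. Across the 28 libraries the correlation of a gene's deviation with that of the other genes had a median of 0.876 and was below 0 for 6 of the 75, among them these 3, Rpl11 and Rpl28, a description only, since the libraries share their scaling and depth.

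**Figure D2:**
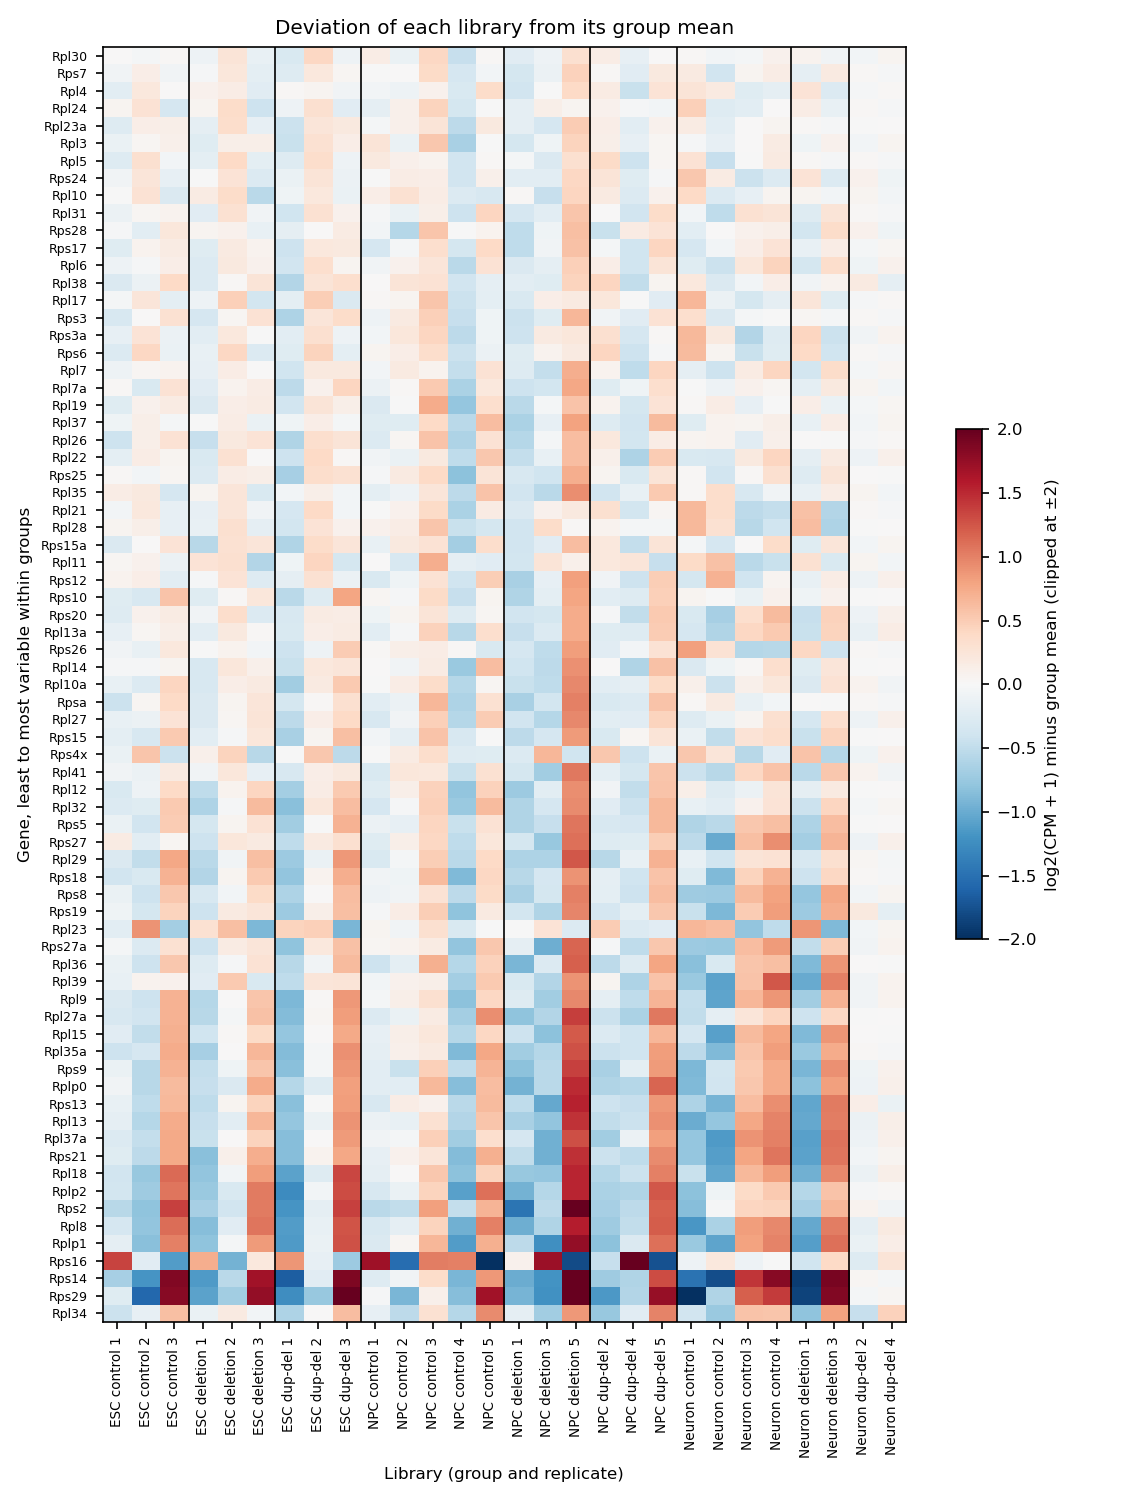
Deviation of each library from its group mean, as log2(CPM + 1), for 73 of the 75 genes ordered from the steadiest (Rpl30) to the most variable, with libraries in columns and groups separated by lines. Red columns at ESC replicates 3, NPC replicates 5, control neurons 3 and 4 and deletion neuron 3 deepen towards Rps14 and Rps29, and Rpl23, Rps4x and Rps16 run against them.

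From control ESCs to control NPCs, 27 of the 74 genes tested fell and 0 rose, with a median log2 change of -0.74; all 74 changes were below 0. Over all 18365 genes, 20.5% were called lower and 21% higher, and the median was 0.01 (edgeR's quasi-likelihood test, Benjamini-Hochberg adjusted p below 0.05 over all genes). Fold changes come from the fit of the 12 control libraries. The falls took in 21 of 44 large-subunit and 6 of 30 small-subunit genes, with medians of -0.79 and -0.69. The small-subunit share of falls was near that of all genes, and the difference between the subunits was not tested. Without the shallow libraries 19 fell and the median was -0.61, and DESeq2 called 43; with 1 library left out in turn 19 to 34 fell.

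The largest falls were in large-subunit genes. Rpl4, whose loop lines the exit tunnel of the ribosome (chromosome 9, 64021194 to 64026369, mm9), read 2293, 3086 and 2663 CPM in control ESCs and 823 to 1309 CPM in control NPCs, with no overlap. It fell by 1.39 ± 0.22 on the log2 scale (SE; edgeR adjusted p = 0.00022), to 38.1% of its ESC level. Rpl23, one of the proteins that bind Mdm2, read 1337 to 3958 CPM in control ESCs and 693 to 1065 CPM in control NPCs. Its log2 change was -1.48 ± 0.38 (adjusted p = 0.0068), and -0.91 with adjusted p = 0.060 without control ESC replicate 2. Rpl23a, which sits at the tunnel exit, fell by 1.21 ± 0.21 (adjusted p = 0.00049), from 992 to 1295 CPM down to 356 to 614 CPM.

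Rpl36 and Rpl13, both of the large subunit, had log2 changes of -1.32 and -1.21, and each lost its call without control ESC replicate 3 (adjusted p = 0.071 and 0.24). Rpl13 also lost it without control ESC replicate 1 or any of control NPC replicates 1 to 4 (adjusted p = 0.056 to 0.095). Rpl22, which also binds viral RNAs, fell by 1.08 ± 0.25 (adjusted p = 0.0035), and Rps20, a small-subunit head protein, by 1.14 ± 0.26 (adjusted p = 0.0033). At the other end, Rps15a, Rps19, Rpl34 and Rps3 lay farthest above the median and none was called. Rps3, at the mRNA entry of the small subunit, read 796 to 1222 CPM in control ESCs and 545 to 1045 CPM in control NPCs, and these ranges overlapped. The change of Rps19 was -0.17 ± 0.38 and turned to 0.06 without the shallow libraries.

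From control NPCs to control neurons, 48 of the 74 genes fell and 0 rose, with a median of -0.98 and 68 changes below 0; 20.5% of all genes were called lower and 23.2% higher, and the median of all was 0.10. Falls were 29 of 44 in the large subunit and 19 of 30 in the small subunit, with medians of -1.002 and -0.967. Without control neurons 3 and 4, 58 fell, and with 1 library left out in turn 43 to 51 fell. Both of these neuron libraries were set apart after seeing the data, in part by their levels of these genes. Counts and p-values without them are therefore descriptions only, here and below. With DESeq2's size factors in edgeR the median of all genes moved from 0.10 to 0.22; relative to it these genes lay at -1.08 with TMM and -1.09 with the size factors, and in the ESC to NPC step at -0.75 and -0.76.

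The largest falls here were mostly of small-subunit genes. Rps6, the substrate of S6 kinase downstream of mTOR (chromosome 4, 86500003 to 86503271, mm9), read 1326, 1402, 1632, 943 and 1169 CPM in control NPCs and 551, 365, 259 and 299 CPM in control neurons. The groups did not overlap, and Rps6 fell by 1.78 ± 0.27 (adjusted p = 0.00015), to 29.0% of its NPC level; between ESCs and NPCs its change was -0.48 ± 0.28 (adjusted p = 0.19). Rps2, a neighbour of the mRNA entry channel, fell by 1.81 ± 0.49 (adjusted p = 0.0087), from 450 to 1158 CPM down to 105 to 261 CPM. Rps3 fell by 1.67 ± 0.24 (adjusted p = 8.0e-05), to 191 to 297 CPM. Rps26, at the mRNA exit and mutated in Diamond-Blackfan anaemia, fell by 1.67 ± 0.29 (adjusted p = 0.00036), to 101 to 266 CPM from 426 to 587 CPM. Rpl12, at the base of the stalk, fell by 1.72 ± 0.28 (adjusted p = 0.00022). Rps29, Rps14, Rps16 and Rpl39 lay farthest above the median, at 1.25, 0.97, 0.60 and 0.44, and none was called. Without control neurons 3 and 4 the changes of Rps29, Rps14 and Rpl39 were -0.42, -1.44 and -0.73. Without the shallow libraries Rps29 was the 1 gene called higher, by 1.98 (adjusted p = 0.032).

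Both control steps shared the NPC libraries, so their lists are set side by side only. Of the 27 genes that fell in the first step 24 fell in the second (88.9%), and these are 50% of the 48. Rpl13, Rpl36 and Rpl27a fell in the first step without a call in the second. Of the 38 with a within-group SD at or below the median of 0.45, 20 fell in the first step and 38 in the second, against 7 and 10 of the other 36, with medians of -0.72 and -1.14 against -0.77 and -0.60. That SD came from these same libraries and enters the test, so steadier genes are called more readily. The counts of this split are therefore no measure of the size of the falls. Genes with a pyrimidine core at the start, of which Rps6 and Rpl12 are examples, fell in 11 of 27 cases in the first step and 18 of 27 in the second; those without one fell in 9 of 27 and 18 of 27, with medians of -0.75 and -1.01 against -0.65 and -0.98.

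**Figure D3:**
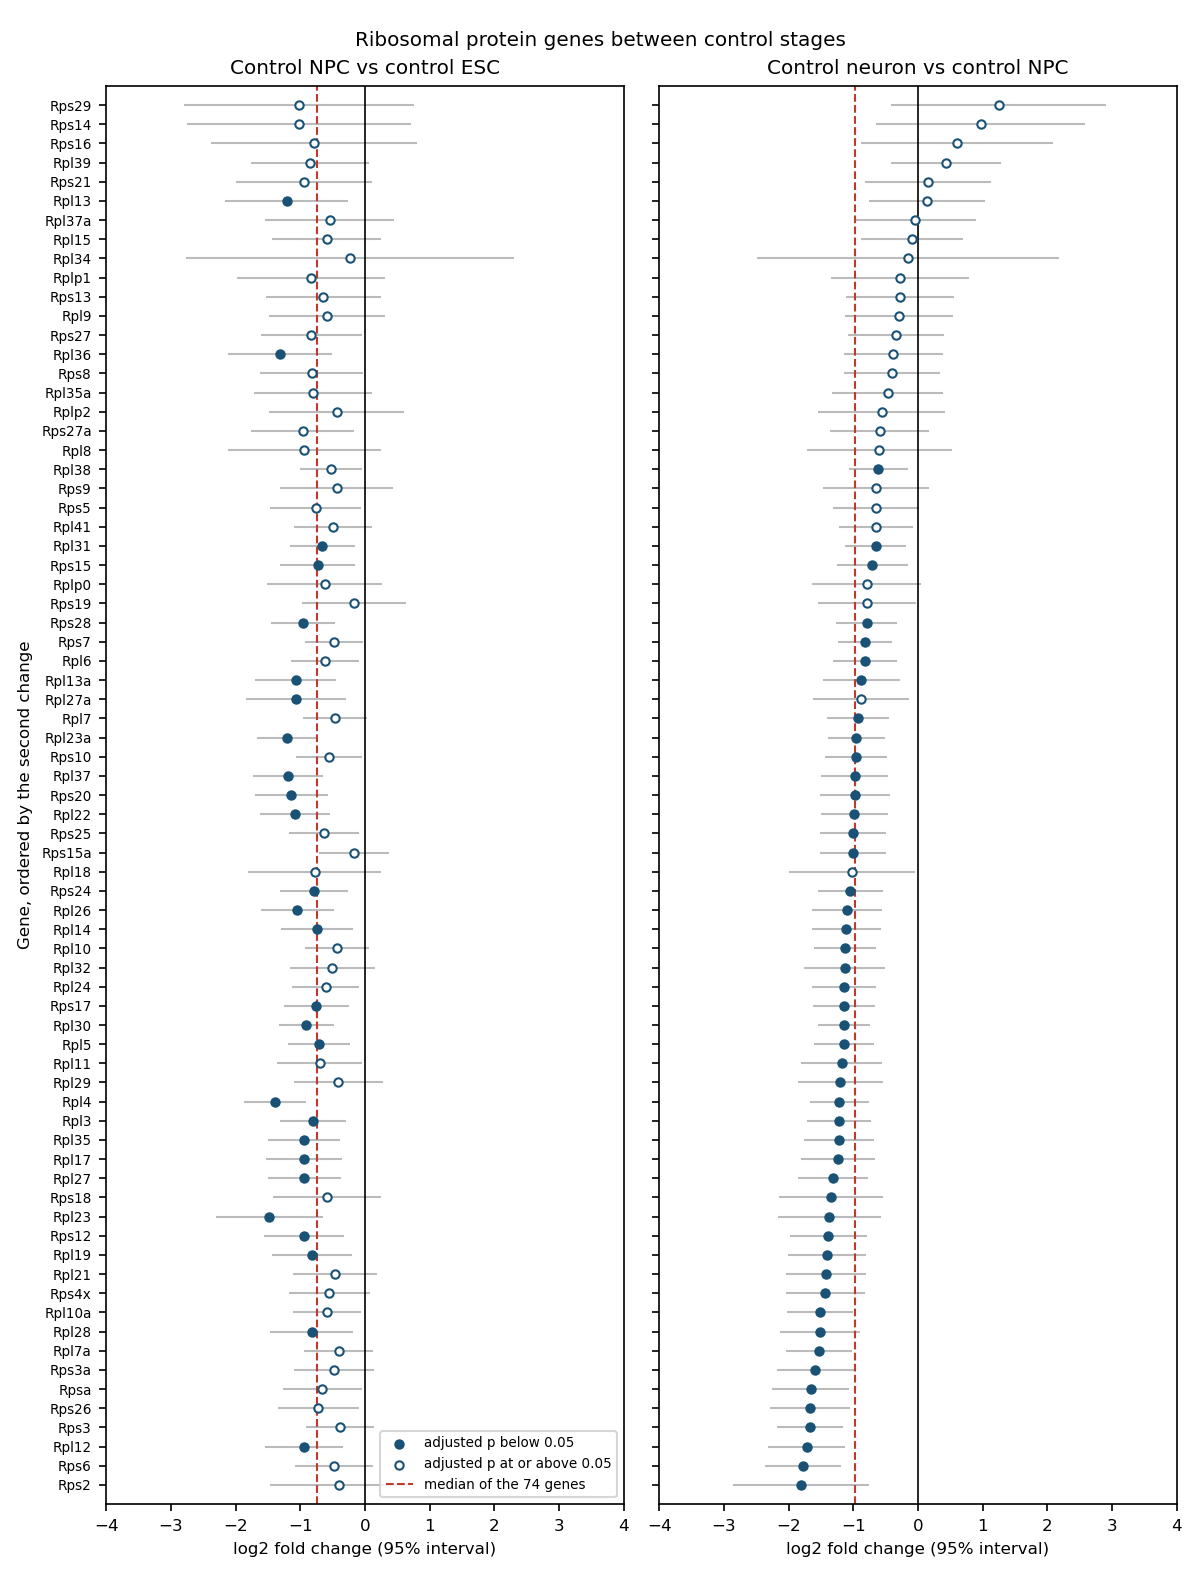
Log2 fold change with its 95% interval of 73 of the 74 genes tested, between control ESCs and NPCs (left) and between control NPCs and neurons (right); filled symbols passed an adjusted p of 0.05 and the dashed line is the median of the 74. All 73 points on the left lie below 0, with 27 filled, and on the right 47 are filled and Rps2, Rps6, Rpl12 and Rps3 lie lowest.

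By role, the stalk proteins Rplp0, Rplp1 and Rplp2, which recruit elongation factors, passed the test in neither step, with changes of -0.63, -0.84 and -0.44 and then -0.79, -0.28 and -0.56. Rplp0 read 407, 292 and 666 CPM in control ESCs and 82.0, 116, 221 and 254 CPM in control neurons, the higher values being replicate 3 in ESCs and replicates 3 and 4 in neurons. Without control neurons 3 and 4 its second change was -1.51. Rpl5 and Rpl11, which form the 5S particle that binds Mdm2, fell by 1.15 ± 0.22 and 1.18 ± 0.29 in the second step (adjusted p = 0.00072 and 0.0048). In the first step Rpl5 changed by -0.71 (adjusted p = 0.021) and Rpl11 by -0.70 (adjusted p = 0.079). The Rpl5 call in the first step was lost without control ESC replicate 2 or control NPC replicate 4 (adjusted p = 0.10 and 0.051). Rpl11 passed there without control NPC replicate 3, and its call in the second step was lost without control neurons 3 and 4 (adjusted p = 0.081). Rpl5 read 874, 1298 and 1003 CPM in control ESCs, 494 to 741 CPM in control NPCs and 206 to 347 CPM in control neurons, with no overlap between stages.

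Of a list of 17 genes mutated in Diamond-Blackfan anaemia, a failure of red cell production, 7 fell in the first step and 11 in the second. These shares were near those of the whole set (27 and 48 of 74), while 20.5% of all genes fell in each step. Rps24 fell in both, by 0.79 ± 0.24 and 1.05 ± 0.23 (adjusted p = 0.019 and 0.0025), the first not without control ESC replicate 2 (adjusted p = 0.063). Rps19, the gene most often mutated, had changes of -0.17 and -0.79, and Rpl35a of -0.81 and -0.47, and neither passed. Without control neurons 3 and 4 their second changes were -1.58 and -1.30. Rpsa, the 40S protein also known as laminin receptor precursor, read 1572 to 2783, 858 to 2090 and 388 to 487 CPM in the control stages. Its first change was -0.66 (adjusted p = 0.080) and it fell by 1.66 ± 0.28 in the second step (adjusted p = 0.00031). Rps27a, made as a fusion with ubiquitin, had changes of -0.96 and -0.59 that did not pass (adjusted p = 0.052 and 0.19). The second was -1.48 without control neurons 3 and 4, and the first passed without control NPC replicate 5 (adjusted p = 0.038).

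Among proteins reported to favour particular mRNAs, Rpl10a fell by 1.52 ± 0.24 in the second step (adjusted p = 0.00018), Rps25 by 1.01 ± 0.24 (adjusted p = 0.0038), and Rpl38, whose loss alters Hox mRNA translation in mouse embryos, by 0.61 ± 0.21 (adjusted p = 0.029). None of these passed in the first step, where they changed by -0.59, -0.63 and -0.52. The Rpl38 call was lost under 9 alternatives, among them DESeq2's size factors (adjusted p = 0.068) and leaving out control NPC replicate 2 or 3 or control neuron replicate 1, 2 or 3 (adjusted p = 0.052 to 0.079). Rpl10, an X-linked gene in which rare variants have been reported in autism, fell by 1.13 ± 0.22 in the second step (adjusted p = 0.00098), and by stage it read 689 to 1027, 505 to 779 and 232 to 372 CPM. Rpl3, at the peptidyl transferase centre, fell in both steps, by 0.81 and 1.22 (adjusted p = 0.015 and 0.00078), but not without the shallow libraries in the first (adjusted p = 0.085). X-linked Rps4x had changes of -0.55 (adjusted p = 0.15) and -1.43 (adjusted p = 0.0010).

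Several of these genes have an expressed second copy, and reads of near-identical copies can be split between entries in the counting, so these levels are uncertain. Rpl36a had no count in any library, which allows up to 0.00236 CPM over all libraries (3 counts, counting error only), while its copy Rpl36al read 97.9 to 930 CPM. Rpl34 read 0 to 5.02 CPM, while the entry Rpl34-ps1 read 17.0 to 154 CPM. Rpl36al fell in both steps, by 1.01 ± 0.25 and 1.32 ± 0.24 (adjusted p = 0.0047 and 0.00056), and so did Rpl7l1, by 0.73 and 1.28 (adjusted p = 0.0082 and 0.00010). Rpl10l and Rpl39l, copies best known from the male germ line, averaged 16.1 and 8.46 CPM in control ESCs and had 0 counts in all control NPC libraries. Against the limit of 3 counts over that group they were at least 1484-fold and 780-fold lower. Rpl3l, the striated muscle copy, read 0.43 to 1.08 CPM in control ESCs and 0 in control NPCs. Rps27l, a p53 target, changed by -0.68 in the first step (adjusted p = 0.26) and fell by 1.97 ± 0.45 in the second (adjusted p = 0.0031). Rpl22l1 read 4.39, 6.90, 16.3 and 24.5 CPM in the 4 control neuron libraries, the upper values in replicates 3 and 4, and its second change was 1.07 ± 0.42 (adjusted p = 0.054). It was -0.09 without both of those libraries, and passed without replicate 1 or 2 (adjusted p = 0.022 and 0.011).

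Lists of other genes of the pathway were tested in the same steps, in which 20.5% of all genes fell each time and 21% and then 23.2% rose. Of 49 ribosome biogenesis factors, 38 fell and 0 rose in the first step and 46 fell and 0 rose in the second, with medians of -1.07 and -1.72. The counts were 37 without the shallow libraries and 40 without control neurons 3 and 4. Mybbp1a and Pes1, both nucleolar, fell by 1.81 and 1.30 in the first step (adjusted p = 1.3e-05 and 3.2e-05), and Ftsj3 by 1.47 and then 2.47 (adjusted p = 4.8e-05 and 6.0e-07). Dkc1, the pseudouridine synthase of rRNA, fell by 3.02 in the second step (adjusted p = 5.6e-06). Of 20 genes of the RNA polymerase I machinery 10 and 12 fell, among them Ubtf, by 0.76 and 1.09 (adjusted p = 0.0050 and 0.00026), and Polr1a by 1.89 in the second step (adjusted p = 2.0e-05).

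Of 20 translation factors with TOP mRNAs 5 fell and 1 rose in the first step, a share of falls near that of all genes, and 14 fell and 0 rose in the second (8 fell without control neurons 3 and 4). The difference between the steps was not tested. Eef1b2 and Pabpc1 fell by 0.96 and 1.49 in the first step (adjusted p = 0.0034 and 0.014; Pabpc1 not without control ESC replicate 1, adjusted p = 0.098), and the elongation factors Eef1a1 and Eef1g by 1.16 each in the second (adjusted p = 0.00086 and 0.0013). Gas5, a non-coding host of small nucleolar RNAs with a TOP start, fell by 0.89 and 2.06 (adjusted p = 0.0059 and 8.3e-06). Of 18 regulators in the mTOR list 2 rose and 4 fell in the first step and 2 rose and 6 fell in the second (0 and 5 without control neurons 3 and 4), so the first count of falls was near the share of all genes. Among them Larp1 fell by 1.31 in the first (adjusted p = 0.0011) and Eif4ebp1, a translation repressor under mTOR, by 2.38 in the second (adjusted p = 0.0021). Of 10 Myc family genes 3 rose and 2 fell in the first step and 2 rose and 2 fell in the second, with falls near the share of all genes. Mycn fell by 1.69 in the second step (adjusted p = 0.0018). Of 16 p53 targets 3 rose and 2 fell in the first step, with a median of -0.18, and 1 rose and 8 fell in the second, with a median of -1.22. In the second step Mdm2 fell by 1.44 (adjusted p = 0.00016) and Sesn1 rose by 2.06 (adjusted p = 1.6e-05). All 20 proliferation genes fell between NPCs and neurons, with a median of -4.20, and 12 of 20 between ESCs and NPCs. Mitochondrial ribosomal protein genes, a separate set of 76, had 25 and 43 falls with 1 rise in each step, and medians of -0.48 and -0.72. Of 78 respiratory chain genes, which deviated with the ribosomal protein genes in the libraries that stood apart, 16 fell and 0 rose in the first step, and 10 fell and 4 rose in the second. The share that fell was near that of all genes in the first step and below it in the second. Of 43 histone genes, which deviated in the same libraries, 3 rose and 3 fell in the first step, with a median of 0.05, and 34 fell and 0 rose in the second, with a median of -3.25. The part of cell division or cell mixture in the falls of the ribosomal protein genes was not tested.

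In mutant cells the same steps were tested in the joint fit of all 28 libraries, where percentages of all 19996 genes called lower were 14.9% (deletion, ESC to NPC), 16.6% (duplication-deletion, ESC to NPC), 12.5% (deletion, NPC to neuron) and 10.4% (duplication-deletion, NPC to neuron). In these, 2, 28, 17 and 24 of 75 genes fell and 0 rose, with medians of -0.31, -0.82, -0.70 and -1.03. The counts turned on single libraries. Without deletion NPC replicate 5, 21 genes fell between deletion ESCs and NPCs (median -0.92) and 2 between deletion NPCs and neurons (median -0.22). The first of these counts was 4 without deletion ESC replicate 3 and 1 without deletion ESC replicate 1 or 2 or deletion NPC replicate 1 or 3. Leaving out deletion neuron replicate 1 or 3 left 1 library in that group. The median of the NPC to neuron step was then -0.40 or -1.06. Between duplication-deletion ESCs and NPCs 12 fell without ESC replicate 2 or NPC replicate 4. Between duplication-deletion NPCs and neurons 13 or 8 fell without NPC replicate 2 or 5. Leaving out neuron replicate 2 or 4 left 1 library in that group. The median was then -1.05 each time, with 1 of 75 changes above 0. Rpl4 and Rpl23a were the pair called in the deletion cells between ESCs and NPCs, with changes of -1.10 ± 0.26 and -0.66 ± 0.25 (adjusted p = 0.0016 and 0.047). In duplication-deletion cells Rpl4 fell by 1.67 ± 0.26 (adjusted p = 2.1e-05). Rps6 fell between NPCs and neurons by 1.26 ± 0.37 in deletion and by 1.41 ± 0.37 in duplication-deletion cells (adjusted p = 0.013 and 0.0080). The 6 tests of a difference of genotype effects between stages called 0 of the 75 genes, with at most 0.005% of all genes called. At an unadjusted p below 0.05 they gave at most 3 of the 75, and 534 to 1004 of all 19996 genes. These 3 were in the deletion effect in neurons minus that in ESCs, where 569 of all genes passed that cut. There all 75 differences were above 0, with a median of 0.72 against 0.08 for all genes. Without deletion neuron replicate 3, 1 of the 2 libraries of that group, 53 of 75 were above 0 and the median was 0.34 against -0.11 for all genes. Without deletion neuron replicate 1, 72 were above 0 and the median was 0.98.

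No gene of the set passed the test between genotypes within a stage. In each of the 9 comparisons 0 of 74 passed by edgeR, as did 0 by DESeq2 and by limma-voom. The genes at an unadjusted edgeR p below 0.05 numbered 1, 0 and 0 in ESCs, 0 in each NPC comparison, and 1, 0 and 3 in neurons. Over all genes that cut gave 207, 51 and 164 of 16470 in ESCs and 598, 447 and 673 of 16783 in NPCs. In neurons it gave 651, 1295 and 1586 of 17931. Few genes of any kind passed: 0% of 16470 in the 3 ESC comparisons, 0.00596%, 0.0119% and 0.0238% of 16783 in NPCs (deletion and duplication-deletion against control, then deletion against duplication-deletion), and 0%, 0.039% and 0.0335% of 17931 in neurons. The 6 comparisons with control in the authors' deposited table listed 72 or 73 of these genes and called 0. Of all genes listed there, 0.0211% and 0.0361% were called in ESCs (deletion, then duplication-deletion), 0.844% and 0.37% in NPCs, and 0.279% and 1.15% in neurons.

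In ESCs the deletion cells lay below control in 73 of 74 genes, with a median of -0.34 against -0.02 for all genes, and below duplication-deletion cells also in 73, with a median of -0.32. The summed level was 32306, 41737 and 36622 CPM in deletion ESCs and 35254, 50635 and 49697 CPM in duplication-deletion ESCs, and both overlapped the control range. ESC libraries of the same number deviated together, but the main test took no pairing. Within the 3 numbers the deletion sum lay below the control sum (39810, 47890 and 50442 CPM) and below the duplication-deletion sum each time. No test was run on the paired sums. The median against control was -0.31 without the shallow libraries and -0.36 with the replicate number as a block. The smallest p was that of Rpl36, at 91.8, 108 and 135 CPM in deletion ESCs and 177, 145 and 281 CPM in controls, with no overlap. Its change was -0.78 ± 0.34 (adjusted p = 1.00). Rps26 followed, at 534 to 580 CPM against 778 to 1003 CPM, groups that did not overlap, with a change of -0.58 ± 0.28 (adjusted p = 1.00). The duplication-deletion cells had a median of -0.04 against control, which was 0.16 without duplication-deletion ESC replicate 1 and 0.05 without control ESC replicate 3.

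In NPCs the median of deletion against control was -0.00 with all libraries, -0.50 without the shallow libraries and -0.61 without deletion NPC replicate 5 alone. With any 1 library left out it ran from -0.61 to 0.20, the latter without deletion NPC replicate 1. The 3 deletion NPC libraries summed to 18695, 22275 and 39005 CPM. For Rpl10, the gene with the smallest p, they read 493, 353 and 654 CPM against 505 to 779 CPM in controls, a change of -0.35 ± 0.24 (adjusted p = 1.00), and the groups overlapped. Duplication-deletion NPCs had a median of -0.18 (-0.33 without the shallow libraries and 0.01 without duplication-deletion NPC replicate 4). Rpl30 had the smallest p there, with a change of -0.36 ± 0.22 (adjusted p = 1.00). Mesenchymal and endothelial markers summed to 534 to 6042 CPM in duplication-deletion NPCs against 514 to 2336 CPM in controls, and their part in these values was not tested. The median between the mutants was 0.15, -0.14 without the shallow libraries and -0.41 without deletion NPC replicate 5.

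In neurons the deletion cells lay above control in 71 of 74 genes, with a median of 0.28 against -0.03 for all genes. These genes deviated together across libraries, so such counts, here and in ESCs, are not counts of independent results. Without deletion neuron replicate 3 the median was -0.11, and 0.21 without control neurons 3 and 4 as well. Dopaminergic markers summed to 237 to 280 CPM in deletion neurons against 545 to 777 CPM in controls, and their part in this difference was not tested. Rpl5 had the smallest p: 451 and 434 CPM in deletion neurons, 206, 281, 320 and 347 CPM in controls, and 224 and 219 CPM in duplication-deletion neurons. The deletion libraries lay above all others, with a change of 0.64 ± 0.27 against control (adjusted p = 1.00) and 1.03 ± 0.32 against duplication-deletion (adjusted p = 0.49). Duplication-deletion neurons had a median of -0.23 against control (-0.05 for all genes), and 0.07 without control neurons 3 and 4. The median of deletion against duplication-deletion neurons was 0.50 (0.04 for all genes), and 0.17 without deletion neuron replicate 3. Rps12, of the small-subunit beak, read 312 and 359 CPM in duplication-deletion neurons against 146, 150, 199 and 312 CPM in controls, so the groups met at 312 CPM, with a change of 0.71 ± 0.35 (adjusted p = 0.69).

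**Figure D4:**
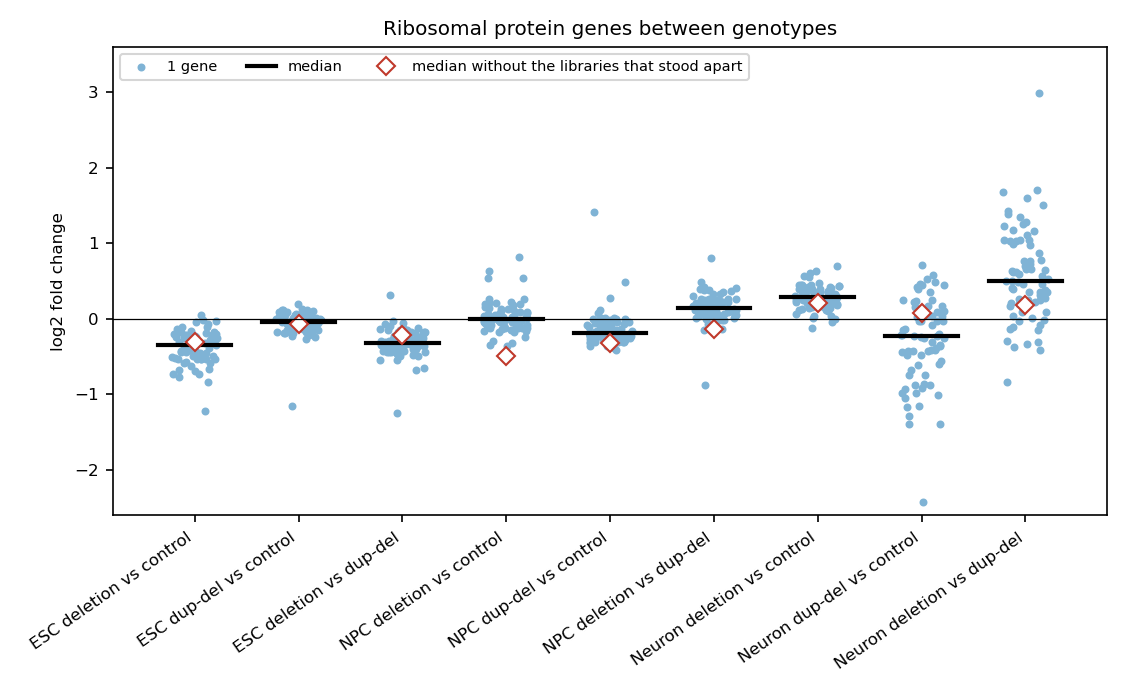
Log2 fold change of each gene in the 9 comparisons of genotypes within a stage (blue points), with the median (black line) and the median without the shallow libraries, or in neurons without control 3 and 4 and deletion 3 (open diamond). The median moves from -0.00 to -0.50 in deletion NPCs and from 0.50 to 0.18 between the neuron mutants, and 0 of 74 points passed the test in each comparison.

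The 6 genes outside the set whose log2 CPM followed the mean of the set most closely over the 28 libraries, out of 11112 genes with a mean of at least 5 CPM, were Gnb2l1, Tomm5, Cox7c, Atp5b, Eef1g and Polr1d, with Pearson r of 0.988, 0.977, 0.974, 0.970, 0.967 and 0.967. Gnb2l1 encodes Rack1, itself a protein of the small subunit under another name. The median r over those genes was 0.0353. The libraries span 3 stages and share the deviations described above, so these are descriptions. Gnb2l1 read 744 to 1373 CPM in control ESCs and 157 to 318 CPM in control neurons, and it fell in both control steps, by 0.91 and 1.16 (adjusted p = 0.031 and 0.0063), though not in the first without the shallow libraries (adjusted p = 0.22), control ESC replicate 3 (adjusted p = 0.18) or control NPC replicate 1, 2 or 4 (adjusted p = 0.056 to 0.077).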

How the data were processed

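RNA libraries of 28 samples were analysed as the authors' deposited table of expected counts per gene, and 6 Hi-C samples were not analysed here. The submitters' processing notes name STAR 2.6.0c, RSEM 1.3.0, DESeq2 1.22.2 and the build mm9; the annotation and strand setting of the counting are not given in the sources used here. The authors' deposited tables of comparisons give log2 fold changes, p-values with adjusted p-values, a mean signal and a test score per gene; the first, the adjusted p-values and the positions were used. Expected counts were rounded (6392 of 29968 entries were not whole) and 92 spike-in entries were left out of library sizes and tests; they held 0 to 1.80% of a library's counts.

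Tests used edgeR 4.0.16 in R 4.3.3 (filterByExpr, TMM, robust quasi-likelihood), with 1 fit of the 3 genotypes per stage, 1 of the 12 control libraries, and 1 of all 28 libraries for mutant steps and differences between stages. P-values were adjusted over all genes by Benjamini-Hochberg at 0.05. Alternatives used DESeq2 1.42.0, limma 3.58.1, other scaling, no filter, libraries left out and a replicate block. Tests were tried on simulated counts first. ESC libraries of the same number deviated together in 9 of 9 pairs (r = 0.178 to 0.590), a pairing read from the data only; the block changed no call of these genes there. Intervals are 95%.

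The genes and the lists were chosen with earlier results of these data known, and the alternative without control neurons 3 and 4 and deletion neuron 3 was added after seeing the data. Counts and p-values of that alternative are descriptions only. Named genes were, by rule, the stalk, 5S, Mdm2, anaemia, paralog and similar role genes, the 5 largest called falls and rises (or the 3 smallest p), the 4 farthest from the median on each side, up to 4 genes per other list, and the 6 most alike. Levels were not compared between genes, since no lengths were at hand. Of the set, 2 genes are not reported here by name, although they stay in the counts and medians.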

Additional observations from a re-analysis of the deposited data

Results flagged for a closer look

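In 3 of 90 checks of a gene within a control group of 4 or 5 libraries, the highest or lowest library lay far from the rest relative to the group's range; chance gives about 1 in 20 checks. Rpl11 read 657 CPM in control NPC replicate 3, and the nearest library read 398 CPM. Rps29 read 83.6 CPM in control NPC replicate 5, a shallow library, and the nearest read 27.3 CPM. Rpl37, a large-subunit zinc-binding protein, read 70.0 CPM in control neuron replicate 1, and the nearest read 86.8 CPM.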

How the results depend on the processing

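Of 235 alternatives for the counts of called genes in 21 comparisons, 211 stayed within 1.5 times and 24 did not; the cause of each move was not tested. DESeq2 called 43 genes between control ESCs and NPCs. Between deletion ESCs and NPCs the count of 2 was 11 with DESeq2's size factors, 16 without the shallow libraries, 31 without all libraries that stood apart, and 1 to 21 with 1 library left out. For duplication-deletion cells that range was 12 to 27. Between deletion NPCs and neurons the count of 17 was 6, 2, 0 and 2 to 21 under the same 4 settings, and for duplication-deletion cells the count of 24 was 15, 13, 22 and 0 to 26. Single libraries were left out of the fit of all 28 for mutant libraries only; this was not run for controls.

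Every pair of same-numbered libraries deviated together only in ESCs. This held for 5 of 7 NPC pairs (r of 0.34 to 0.43 among replicates 5), 3 of 4 neuron pairs (0.41 and 0.48 for numbers 1 and 3) and 2 of 10 pairs of control stages. The main tests took no libraries as paired, in ESCs or elsewhere, and the replicate block was an alternative only. With the replicate block 25 and 46 genes fell in the control steps and 0 were called between genotypes.

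Of 2462 alternatives for single named genes, 2333 kept direction and call, 75 lost the call, 36 gained it and 18 changed sign. In duplication-deletion ESCs Rps10 ran from -0.73 to 0.055 with 1 library left out, the latter without control ESC replicate 3. Between control ESCs and NPCs, without the shallow libraries, Rps19 was 0.063, Rps2 0.46 and Rps14 0.28. With 1 library left out, Rplp2 ran from -0.80 to 0.31, Rps19 from -0.35 to 0.082, Rps2 from -0.76 to 0.62 and Rps14 from -1.48 to 0.55, each highest without control ESC replicate 3. Rpl34, near 0 counts, ran from -0.96 to 0.57. Between control NPCs and neurons Rplp1 ran from -0.62 to 0.051 and Rpl39 from -0.082 to 0.77. Without control neurons 3 and 4 Rpl39 was -0.73, Rps14 -1.44, Rps29 -0.42 and Rpl22l1 -0.093. Depth limits the near-0 genes: 3 counts are 0.00236 CPM over all libraries.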
